A study of Saccharomyces cerevisiae with 4 samples.

Results

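The 10 histone genes of budding yeast (Saccharomyces cerevisiae) were taken by systematic name from a table of 6207 reading frames. They comprise both copies of each core histone gene, which are HTA1 (YDR225W) and HTA2 (YBL003C) for H2A, HTB1 (YDR224C) and HTB2 (YBL002W) for H2B, HHT1 (YBR010W) and HHT2 (YNL031C) for H3, and HHF1 (YBR009C) and HHF2 (YNL030W) for H4. The other members are HTZ1 (YOL012C), which codes for the variant H2A.Z, and HHO1 (YPL127C), which codes for the linker histone H1. All 10 were in the table, and 9 had a value on all 4 arrays, compared with 49.6% of all reading frames.

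Every sample was a wsc1 mutant in the BY4741 background, grown in YEPD at 24 °C. WSC1 codes for a cell surface sensor of wall stress, and Congo Red interferes with wall assembly by binding to chitin and glucan. A culture was divided, 1 part received 30 µg/ml Congo Red and the other none, and cells were collected at 4 h. Each of the 4 two-colour microarrays carried RNA of both parts, and the dyes were swapped. Cy3 marked the Congo Red RNA on arrays 1 and 3, and Cy5 marked it on arrays 2 and 4, so that 2 cultures were each measured in both orientations. The sources used here do not tie arrays to cultures. No strain with intact WSC1 was analysed here, so the values describe the mutant alone. The WSC1 row was empty on all 4 arrays, as were those of MET17 and URA3, both deleted in BY4741. LEU2, also deleted in that strain, had a value on all 4, as did HIS3, listed with them. Empty rows were common, at 19.6% (array 4) to 47.6% (array 1) of all reading frames. The mating type a genes MFA1, MFA2, STE2, AGA2 and BAR1 had values on all 4 arrays, and of the alpha genes MF(ALPHA)1 and STE3 had none, SAG1 had 1 value and MF(ALPHA)2 had 3.

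Histones package DNA. An octamer of H2A, H2B, H3 and H4 wraps DNA into a nucleosome, H1 binds the linker DNA between nucleosomes, and H2A.Z replaces H2A near promoters. In yeast the core histone genes lie in divergent pairs, an H2A gene beside an H2B gene and an H3 gene beside an H4 gene, and each pair shares 1 promoter region. Their transcripts accumulate in S phase, when new DNA is packaged, and are held low outside it by the HIR complex and raised by Spt10 and Spt21. HTZ1 is expressed throughout the cell cycle. Both H3 genes code for the same protein, as do both H4 genes, while the H2A copies and the H2B copies differ at few residues.

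The values are log2 ratios, so a difference of 1 is a 2-fold difference, and they give changes, not transcript levels. On each of the 4 arrays, 2 raised to the value gave a ratio with 4 decimals for 100% of the values (tolerance set by the 9 printed decimals), which was so for at most 0.092% with base 10 and 0.023% with base e. The sources used here do not name the numerator. Congo Red was taken as the numerator because all 15 measured members of a list of cell wall integrity genes, chosen with earlier results known, lay above 0 on all 4 arrays. With arrays 2 and 4 turned, 0 of 15 did, which follows from the first count and adds no support. The direction is therefore likely and not settled. Nothing in these values separates a change in transcript per cell from a change in the share of cells in S phase. Copies of a histone gene are similar in sequence, and the sources used here do not name the kind of probe, so signal of a gene and of its copy cannot be told apart with certainty.

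None of the 9 tested histone genes passed the test of Congo Red against untreated. Limma on culture means gave 0 of 9 at an adjusted p below 0.05, against 2.60% of all 3080 tested genes, of which 47 (1.53%) were higher and 33 (1.07%) lower. At an unadjusted p below 0.05 it gave 0 of 9, against 26.2% of all tested genes. The means of the histone genes ran from -0.23 to 0.23, with a median of 0.17, while the median of all tested genes was -0.10. Means lay above 0 for 6 of the 9, against 32.8% of all tested genes. All 6 are core histone genes, and they lay between 0.14 and 0.23. Values above 0 on all 4 arrays were found for 3 of the 9, HTA2, HHT1 and HHF2, against 7.44% of all tested genes.

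**Figure D1:**
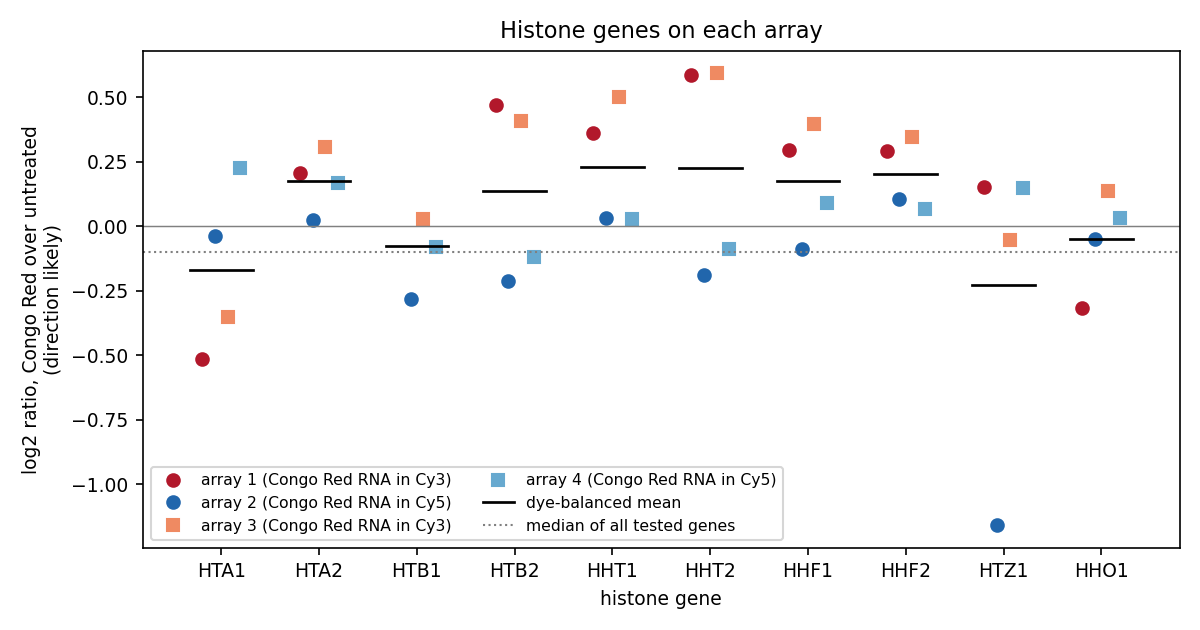
Log2 ratio of Congo Red over untreated (likely direction) for each histone gene on each of the 4 arrays. Colours give the dye of the Congo Red RNA (reds Cy3, blues Cy5), black bars the mean of both orientations and the dotted line the median of all tested genes. For HTA2, HTB2 and the H3 and H4 genes, both red points lie above both blue points, and for HTA1 below them.

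The H3 genes had the highest means as deposited. With arrays 2 and 4 turned this order did not hold, since HHT2 was then at 0.36, HTB2 at 0.30, HTZ1 at 0.28 and HHT1 at 0.20. HHT1 had log2 ratios of 0.36, 0.03, 0.50 and 0.03 on arrays 1 to 4. All 4 lay above 0, those of arrays 1 and 3 well above those of arrays 2 and 4, with no overlap between the orientations. The mean was 0.23 ± 0.09 (moderated SE, n = 2 cultures), a ratio of 1.17, and was not called (limma, adjusted p = 0.194). The other H3 gene, HHT2, had 0.58, -0.19, 0.59 and -0.09. Its arrays 1 and 3 were the highest single values among all members, while arrays 2 and 4 lay below 0. The HHT2 mean of 0.22 ± 0.09 (n = 2 cultures) was nearly that of HHT1 and was not called either (limma, adjusted p = 0.199).

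The H4 genes followed closely. HHF2 had log2 ratios of 0.29, 0.11, 0.35 and 0.06, above 0 on all 4 arrays. The mean was 0.20 ± 0.09 (n = 2 cultures; limma, adjusted p = 0.218). HHF1 had 0.30, -0.09, 0.39 and 0.09, of which array 2 alone lay below 0. The HHF1 mean was 0.17 ± 0.09 (n = 2 cultures; limma, adjusted p = 0.286).

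The 2 H2A genes lay on opposite sides of 0. HTA2 had log2 ratios of 0.20, 0.03, 0.31 and 0.17, above 0 on all 4 arrays, with a mean of 0.18 ± 0.09 (n = 2 cultures; limma, adjusted p = 0.277). HTA1 had -0.52, -0.04, -0.35 and 0.22, which makes it the core gene with the lowest values on arrays 1 and 3. Its highest value was that of array 4. The HTA1 mean was -0.17 ± 0.10 (n = 2 cultures; limma, adjusted p = 0.312), and 35.4% of tested genes had a lower mean.

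Of the H2B genes, HTB2 had log2 ratios of 0.47, -0.21, 0.41 and -0.12, so its sign followed the dye as that of HHT2 did. The mean was 0.14 ± 0.09 (n = 2 cultures; limma, adjusted p = 0.350). HTB1 was empty on array 1 and was left out of the fit on culture means. It had -0.28, 0.03 and -0.08 on arrays 2 to 4, all nearer to 0 than the values of HTB2 on array 3 or those of HHT2 on arrays 1 and 3. Limma fitted to single arrays and a dye term, over the 3677 genes with at least 3 values, put HTB1 at -0.08 ± 0.11 (adjusted p = 0.626) and called 5.82% of those genes.

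HTZ1, the variant H2A.Z, had the lowest mean, but 1 array set it. Its log2 ratios were 0.15, -1.16, -0.06 and 0.15, so array 2 stood far below the other 3, which lay near 0. The mean was -0.23 ± 0.18 (n = 2 cultures; limma, adjusted p = 0.418). Without array 2 it was 0.10 (limma fitted to single arrays and a dye term, adjusted p = 0.646), so that the direction turned. HHO1, the linker histone, had -0.32, -0.05, 0.14 and 0.03, spread on both sides of 0. The HHO1 mean of -0.05 ± 0.11 (n = 2 cultures; limma, adjusted p = 0.775) lay nearest to 0 among the tested members, and was 0.07 when each array was centred on its median.

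Because a missed threshold does not show an unchanged transcript, the intervals give what the arrays leave possible. Each 95% interval of the mean log2 ratio takes the outer bounds of the limma intervals under both possible pairings of arrays into cultures. These intervals included 0 for all 9 tested members. For HHT1 the interval ran from -0.00465 to 0.464, a ratio between 0.997 and 1.38, and for HHT2 from -0.00901 to 0.457. No interval of a tested member reached above a ratio of 1.38. The lowest lower bounds were those of HTZ1, a ratio of 0.623, and HTA1, a ratio of 0.738. The SE draws on the variance pooled over all genes, and no tested gene had one much below 0.09, so the intervals rest in part on genes other than histones.

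**Figure D2:**
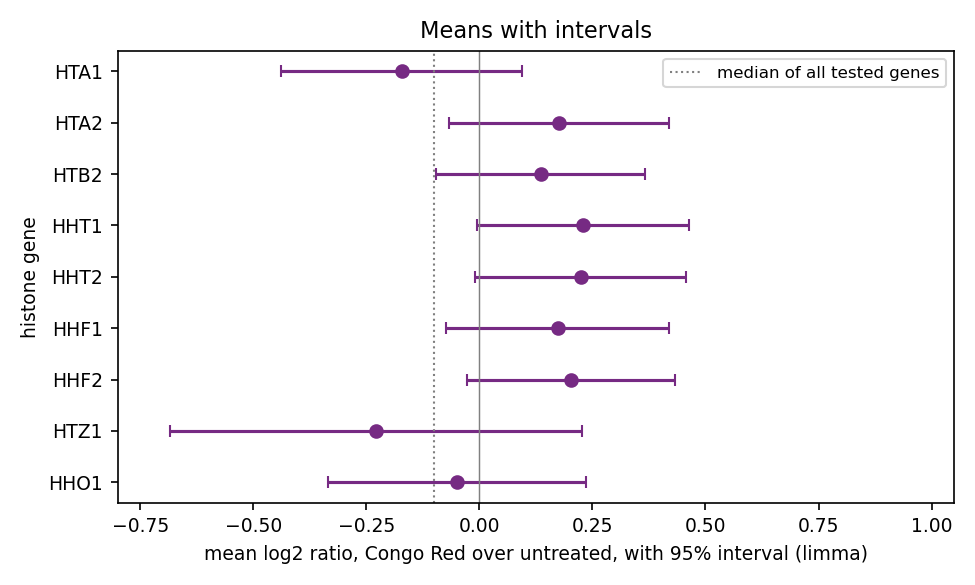
Mean log2 ratio of Congo Red over untreated (likely direction) with its 95% interval, for the 9 histone genes with a value on all 4 arrays (n = 2 cultures). Intervals span the outer bounds from limma under both pairings of arrays into cultures. All 9 intervals include 0, and that of HTZ1 is the widest.

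Read array by array, the median of the histone genes was higher where the Congo Red RNA carried Cy3. It was 0.29 on array 1 and 0.33 on array 3, against -0.07 on array 2 and 0.05 on array 4, while the medians of all reading frames lay between -0.14 and -0.08. The counts of members above 0 were less clearly split, at 7 of 9 on array 1 and 8 of 10 on array 3, against 3 of 10 on array 2 and 7 of 10 on array 4. Of all reading frames with a value, 32.7% (array 2) to 39.5% (array 3) lay above 0. Over the 9 tested members the median of the 2 arrays with Congo Red in Cy3 was 0.32, and that of the 2 arrays with Congo Red in Cy5 was 0.00063. This split by orientation was added after the values were seen.

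Both Cy3 values lay above both Cy5 values for 6 of the 7 core genes with a full set of values, namely HTA2, HTB2, HHT1, HHT2, HHF1 and HHF2. Of all tested genes 31.9% showed this order. HTA1 had the opposite order, as 34.5% of all tested genes did, and HTZ1 and HHO1 had neither.

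The effect of orientation was tested by a dye term fitted to the 4 arrays in limma. It called 2 of the 9 histone genes, HHT2 and HTB2, against 16.0% of all tested genes, or 8.15% for the direction with Cy3 higher. HHT2 was 0.73 ± 0.14 higher with Congo Red in Cy3 than in Cy5 (n = 4 arrays; limma, adjusted p = 0.0294), a difference above that of 91.4% of tested genes. HTB2 was 0.60 ± 0.14 higher (n = 4 arrays; limma, adjusted p = 0.0452). At an unadjusted p below 0.05 it gave 4 of the 9, HTA1, HTB2, HHT1 and HHT2, against 37.2% of all tested genes. In the other direction HTA1 was 0.53 ± 0.16 lower, which was not called (limma, adjusted p = 0.0842). The differences of HHT1, HHF1, HHF2 and HTA2 were 0.40, 0.34, 0.23 and 0.16, also not called. These calls did not hold when an array was left out. Without array 3, HHT2 alone stayed called (limma, adjusted p = 0.0375), and without array 1, 2 or 4 none did. Over all genes the same fits called 547, 0, 612 and 1 without arrays 1, 2, 3 and 4, in place of 493.

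The same fit, which takes the arrays as the units, gave the Congo Red effect smaller errors and still called 0 of the 9, against 10.4% of all tested genes. At an unadjusted p below 0.05 it gave 3, HHT1, HHT2 and HHF2, against 36.1% of all tested genes. The smallest adjusted p among the histone genes was 0.0888, for HHT1.

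**Figure D3:**
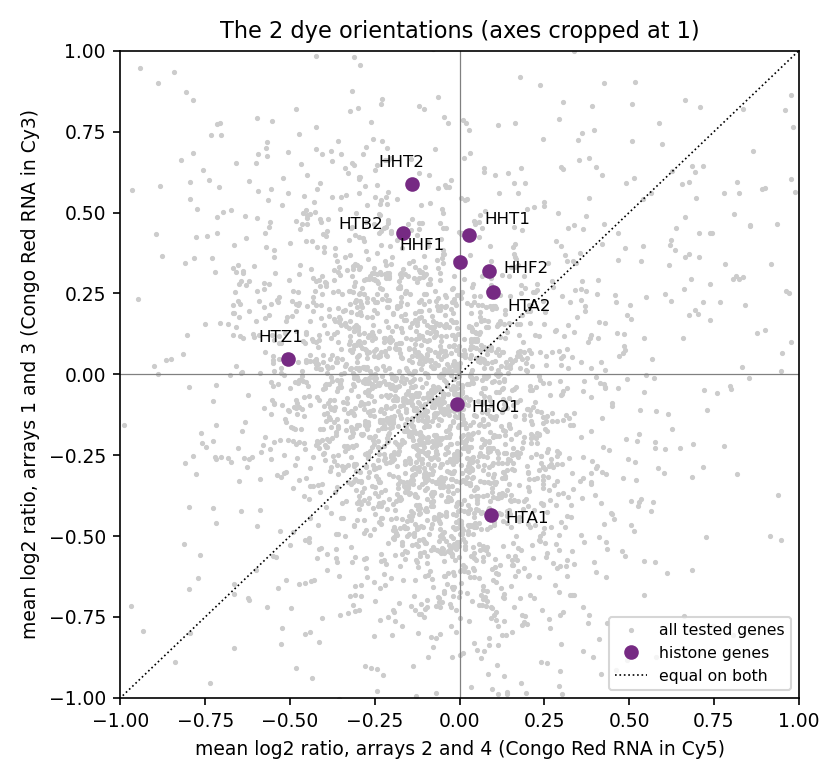
Mean log2 ratio on the 2 arrays with Congo Red RNA in Cy3 (vertical) against that on the 2 arrays with it in Cy5 (horizontal), for all tested genes (grey, 163 lie outside the axes) and the 9 histone genes (purple). On the dotted line both orientations give the same value. HHT2 and HTB2 lie far above the line, at 0.59 and 0.44 vertically, and HTA1 lies below it.

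Within an array, the difference between 2 genes cancels any shift that the whole array shares. The 4 pairs of copies were compared in this way, and an exact sign-flip permutation test over 2 cultures cannot go below p = 0.50 (two-sided), so the differences are given without a test. The H2A copies were the furthest apart. HTA1 minus HTA2 was -0.72, -0.06, -0.66 and 0.05 on arrays 1 to 4. The copies thus differed on both arrays with Congo Red in Cy3 and hardly at all on the other 2. The mean difference was -0.35 ± 0.40 (SD, n = 4 arrays), an SD that includes the swing between the orientations. Averaged over both orientations per culture, the difference was -0.39 and -0.30 with arrays 1 and 2 as a culture, or -0.33 and -0.36 with arrays 1 and 4, below 0 in both cultures either way. As the mean of both orientations, it lay between -0.38 and -0.32 whichever array was left out. Both summaries average the orientations, so neither shows a difference on the arrays with Congo Red in Cy5.

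The remaining copies had smaller mean differences. HTB1 minus HTB2 was -0.07, -0.38 and 0.04 on arrays 2 to 4, with an SD of 0.22 (n = 3 arrays). The mean of both orientations was -0.20 for this pair. Array 3, with the largest difference, counts in that mean as much as arrays 2 and 4 together. HHT1 minus HHT2 was -0.22, 0.22, -0.09 and 0.12, with a sign that followed the dye and a mean of 0.0057 ± 0.20 (SD, n = 4 arrays). The H4 copies had the smallest spread of the 4 pairs of copies. HHF1 minus HHF2 was 0.00 on array 1, -0.20 on array 2, 0.05 on array 3 and 0.03 on array 4, with a mean of -0.03 ± 0.11 (SD, n = 4 arrays). Per culture, the differences of the H3 copies and of the H4 copies were at most 0.10 in size under either pairing.

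The 4 divergent pairs were compared in the same way, and the partners of each are direct neighbours in the RefSeq gene table of assembly R64. HHT1 and HHF1 had the smallest spread between arrays, though not the smallest mean, with differences of 0.06, 0.12, 0.11 and -0.06 on arrays 1 to 4 and a mean of 0.06 ± 0.08 (SD, n = 4 arrays). HHT2 minus HHF2 was 0.29, -0.30, 0.25 and -0.15, opposite in sign between the orientations, with a mean of 0.02 ± 0.29 (SD, n = 4 arrays). HTA2 minus HTB2 was -0.26, 0.24, -0.10 and 0.29, also opposite in sign between the orientations but the other way round, with a mean of 0.04 ± 0.27 (SD, n = 4 arrays). HTA1 minus HTB1 was 0.24, -0.38 and 0.30 on arrays 2 to 4, with an SD of 0.38 (n = 3 arrays). The mean of both orientations was -0.05 for this pair. Array 3, the only one below 0, counts in that mean as much as arrays 2 and 4 together. No mean difference exceeded its SD, either between partners or between copies. Each SD includes the swing between the orientations, so it does not measure the error of a mean of both. No mean between partners was larger than 0.06 in size. Means between copies were -0.35 for H2A, -0.20 for H2B, 0.0057 for H3 and -0.03 for H4. That of H2B rests on 3 arrays and leans on array 3.

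**Figure D4:**
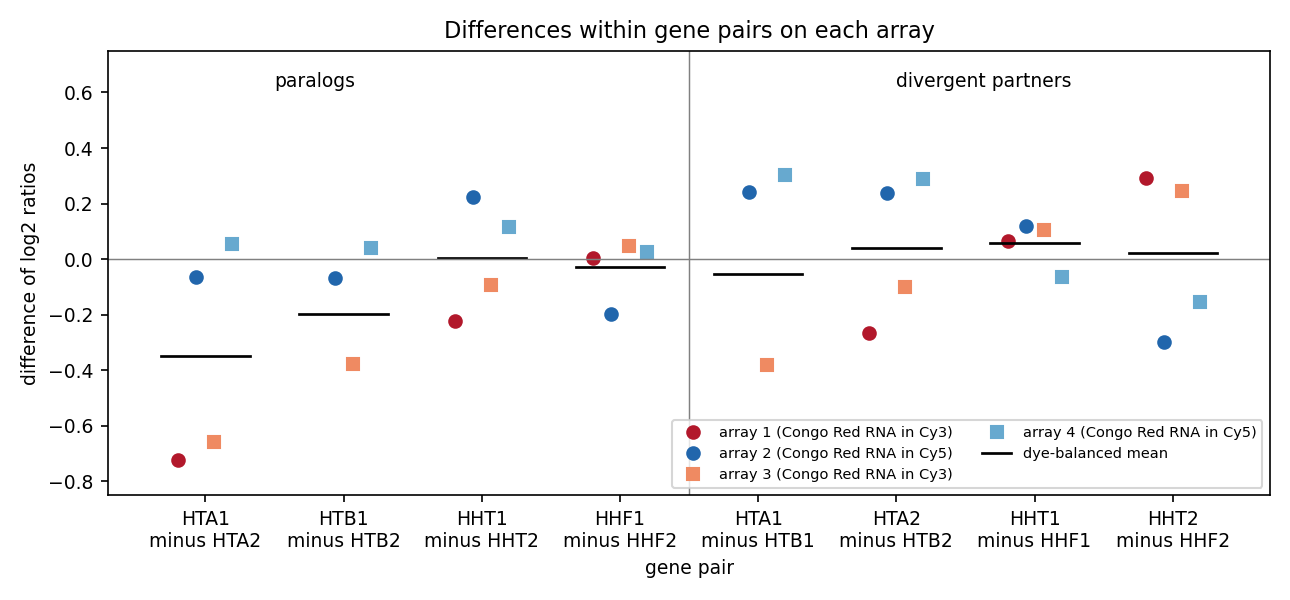
Difference of log2 ratios within each gene pair on each of the 4 arrays, with copies of a histone gene on the left and divergent partners on the right. Colours give the dye of the Congo Red RNA and black bars the mean of both orientations. HTA1 minus HTA2 reaches -0.72 and -0.66 on the arrays with Congo Red in Cy3 and lies near 0 on the others.

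Most genes that control histone transcription lacked a full set of values. Of 12 listed regulators 9 had at least 1 value and 2 had a value on all 4 arrays. Limma called 0 of these 2, with 0 at an unadjusted p below 0.05. Over all tested genes 2.60% were called and 26.2% had such a p, the background for this list and those below. ASF1, a chaperone of H3 and H4 that acts with the HIR complex, had log2 ratios of 0.69, -0.18, 0.67 and -0.52. Both Cy3 values lay above both Cy5 values, as for 31.9% of all tested genes. The ASF1 mean was 0.17 ± 0.10 (n = 2 cultures, limma adjusted p = 0.309). Its difference between the orientations was called (1.03, limma adjusted p = 0.0257). Such calls, here and in the lists below, were made for 16.0% of all tested genes. Without array 2 the same fit called 0 of all genes, and without array 4 it called 1. HPC2, a subunit of the HIR complex, had a mean of 0.02. HIR1, HIR3 and SPT21 were empty on all 4 arrays, and SPT10 had -0.63 on array 3 and -0.30 on array 4 alone.

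Of 11 histone chaperones and importers 6 were tested, with 0 called, 0 at an unadjusted p below 0.05 and a median of -0.07. SPT16 and POB3 code for the FACT complex, which moves H2A and H2B during transcription and replication. SPT16 had log2 ratios of 2.60, 2.49, -0.80 and 0.79, so its mean of 1.27 ± 0.61 (n = 2 cultures; limma, adjusted p = 0.249) spans a wide spread with 1 array on the other side of 0. POB3 had a mean of -0.44 (limma, adjusted p = 0.307) and ranged from -1.28 to 0.65. CHZ1, a chaperone of H2A.Z, had a mean of 0.05 and a called difference between the orientations (0.87; limma, adjusted p = 0.0260).

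The SWR1 complex puts H2A.Z into nucleosomes. Of its 13 listed subunits and partners 7 were tested, with 0 called and 2 at an unadjusted p below 0.05 (26.2% of all tested genes). The median was -0.10, the same as that of all tested genes. RVB1, an ATPase subunit, had the largest decrease in value at -0.43 ± 0.09 (n = 2 cultures; limma, adjusted p = 0.103), and SWC3 the largest increase in value at 0.33 ± 0.12 (n = 2 cultures; limma, adjusted p = 0.181). SWR1, the gene of the catalytic subunit, had a mean of -0.0062 and a called difference between the orientations (0.71; limma, adjusted p = 0.0457). Of 28 histone modifying enzymes 6 were tested, with 0 called, 0 at an unadjusted p below 0.05 and a median of -0.14. The deacetylase gene HST2 was at -0.23 and RAD6, which codes for the enzyme that attaches ubiquitin to H2B, at 0.21. RAD6 also had a called difference between the orientations (0.98; limma, adjusted p = 0.0237). Of 4 other chromatin proteins none was tested. CSE4, the centromeric H3 variant, had -0.51 on array 3 and -0.32 on array 4 alone.

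Genes of DNA replication code for polymerases, the helicase and clamp loader, and enzymes that make nucleotides. Of 29 listed 19 were tested, with 0 called, 5 at an unadjusted p below 0.05 (26.2% of all tested genes) and a median of -0.07. Means lay above 0 for 5 of the 19, against 32.8% of all tested genes, so the share was near that background. PRI2, a primase subunit gene, was at -0.35 ± 0.12 (n = 2 cultures; limma, adjusted p = 0.172) and POL3, the gene of DNA polymerase delta, at -0.30 ± 0.10 (n = 2 cultures; limma, adjusted p = 0.173). Both Cy3 values lay above both Cy5 values for 3 of the 19 (31.9% of all tested genes), and below them for 9 (34.5%). The difference between the orientations was called for CDC21 (1.34), DUT1 (-1.01) and RFA3 (-0.72), with limma adjusted p-values of 0.0244, 0.0248 and 0.0312. Of all tested genes 16.0% were called for it. The difference between histone and replication genes was not tested.

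**Figure D5:**
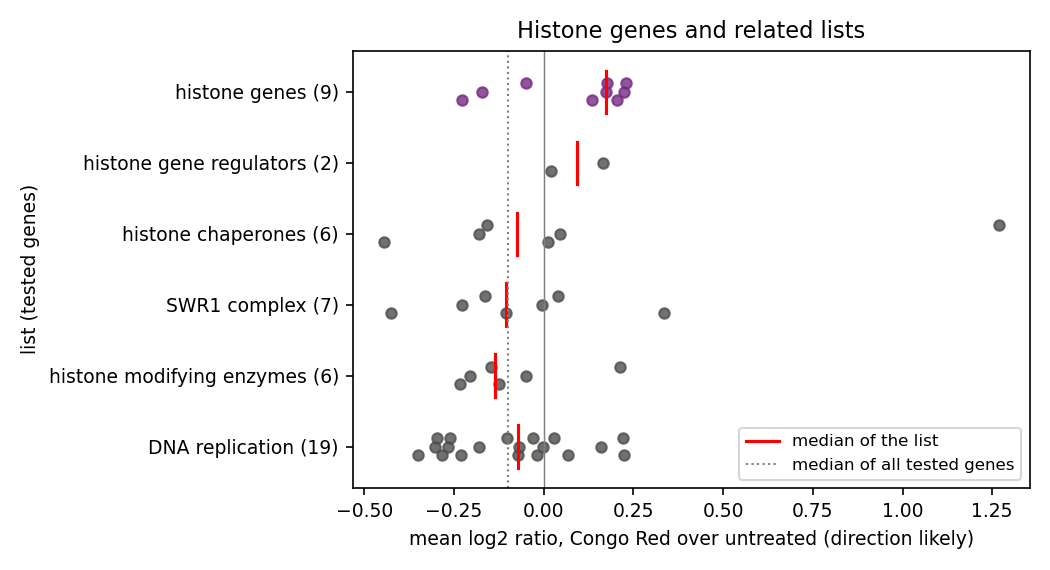
Mean log2 ratio of Congo Red over untreated (likely direction) for each tested gene, by list, with the number of tested genes in brackets. Red bars are list medians and the dotted line is the median of all tested genes. Points are shifted vertically for visibility. The histone median is 0.17, and 4 of the 5 other medians lie between -0.14 and -0.07.

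The mean profile of the 7 core genes with full values was 0.24, -0.05, 0.31 and 0.05 on arrays 1 to 4. The tested genes outside the family nearest to it, by root mean square distance over the 4 arrays, were RPO41, LHP1, CSL4, HXK2 and YLR294C, at distances of 0.03 to 0.06. RPO41, the mitochondrial RNA polymerase gene, was the nearest, with 0.24, -0.06, 0.25 and 0.06. All 7 core genes helped to form the profile, which places each nearer to it. Among them HHF1, at a distance of 0.06, had 2 outside genes nearer to the profile than itself. HTA2 had 9, HHF2 18, HHT1 53, HTB2 183 and HHT2 475. HTA1 lay at 0.51, with 2083 of 3071 outside genes nearer to the profile.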

How the data were processed

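RNA was labelled with Cy5 and Cy3 during reverse transcription, per the labels. The authors deposited 1 log2 ratio per reading frame and array; the sources used here do not state the background correction, normalization, centring or rule for empty cells. Labels and design text differ in how long cultures grew before Congo Red was added. Of 6209 rows 2 were control spots and were left out. Symbols came from the RefSeq gene table of assembly R64 (5654 matched, 553 did not).

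Values were used as deposited. The 3080 reading frames with 4 values were averaged per culture, which cancels a constant dye effect, under both possible pairings of opposite orientation (either 1 with 2, or 1 with 4, and the remaining arrays together). Each was fitted with limma 3.58.1 (lmFit, eBayes) in R 4.3.3, keeping the larger p and SE and the outer interval bounds. Benjamini-Hochberg adjustment ran over all 3080 reading frames, threshold 0.05, two-sided. The number of arrays limits the precision. Fits were also run on simulated data with independent errors on each array. Such data cannot show whether cultures or arrays are the right units.

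Members, lists and tests were chosen with earlier results of these data known. Named genes are all members, the called or 2 largest genes per list, the 5 nearest profiles, and genes with called dye effects or a stated role, chosen after their values were seen. Promoter motifs were planned and not analysed here. Alternatives changed the pairing, the dye term, centring, scaling, the number of values needed and the arrays used.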

Additional observations from a re-analysis of the deposited data

Results flagged for a closer look

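HTZ1 was the member with 1 array far from the others. The gap between its lowest log2 ratio, -1.16 on array 2, and the next, -0.06 on array 3, was 0.842 of its whole range, above Dixon's 95% critical value for 4 values. Of all tested genes 3.25% passed the same limit, and chance alone passes about 1 in 20. The cause was not tested.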

How the results depend on the processing

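The count of called histone genes for Congo Red stayed at 0 under every alternative run, as did the counts of the lists, which were recomputed after centring and with a dye term on single arrays. The count over all genes moved with the fit, from 80 to 787 with arrays 1 and 4 as a culture, 320 when single arrays and a dye term were fitted, 36 when that term was dropped, 32 after centring each array on its median, 4 after centring on the medians of tested genes alone (added after seeing the data), 214 when 3 values sufficed and 0 with arrays 2 and 4 turned. After scaling to one spread it was 62. Leaving out each array gave 12 to 805 genes. Centring took the share of higher calls from 47 of 80 to 30 of 32. It moved the median of all tested genes from -0.10 to 0.02 and that of the histone genes from 0.17 to 0.29.

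Over all alternatives the means of the 9 tested members kept their sign and side of the threshold in 112 cases and changed sign in 5. HHO1 was at 0.070 and 0.040 after centring on all and on tested genes and ran from -0.16 to 0.064 when an array was left out (0.064 without array 1). HTZ1 ran from -0.56 to 0.10, and was at 0.28 with arrays 2 and 4 turned and 0.10 without array 2. HTB1, which had no test on culture means, also changed sign, from -0.077 to 0.037 after centring and to 0.10 with arrays 2 and 4 turned. The histone median lay between 0.13 and 0.19 when an array was left out. The 2 calls for orientation became 0 or 1 when an array was left out. With arrays 2 and 4 turned, the count of cell wall integrity genes above 0 on all arrays was 0 in place of 15, as the count of 15 requires. The causes were not tested. Each ratio already sets both parts of a culture against each other, and both pairings of arrays into cultures were fitted. Ratios hold no signal over background, so dim spots could not be told from bright ones.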
